A study of Mus musculus with 4 samples.

Results

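The Hox cluster genes encode homeodomain transcription factors, and 38 of them were followed across both sublines of this array series. They were taken from a list of named genes, 10 in the Hoxa cluster, 10 in Hoxb, 9 in Hoxc and 9 in Hoxd, and not by their signal. Of the 38 genes, 33 had a probe set annotated to that gene alone, out of 18193 genes with such a probe set on the array. Hoxa6, Hoxb8, Hoxc11, Hoxc12 and Hoxd4 were not analysed here.

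Hox proteins bind short DNA sites around a TAAT core, usually together with cofactors of the Pbx and Meis families, and set the identity of cells along the body axis. The genes lie in clusters in which position follows the place of expression: low paralogue numbers are used in the hindbrain and high numbers towards the tail. Polycomb complexes keep the clusters silent where they are not used, and trithorax complexes of the MLL type keep them active. The telencephalon, the front of the brain, develops outside the region in which Hox genes are normally used, and retinoic acid and Cdx factors are known inducers of Hox genes in more posterior tissue.

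RNA was measured on 4 arrays, 2 of a tumorigenic and 2 of a nontumorigenic subline. Both sublines began as neural stem cells from the telencephalon of p53-/- C57BL/6 mice at embryonic day 14.5, grown as floating spheres in a serum-free medium with PDGF and bFGF. Both carry the plasmids pCMS-EGFP-HRasL61, which supplies GFP and an activated HRas, and pBabe-neo, were selected in neomycin at 0.5 mg/ml and were sorted for GFP. The tumorigenic subline carries the label GIC, for glioma-initiating cell-like, and the nontumorigenic one the label non-GIC. Each group stands for 1 subline, so any difference between them goes along with tumorigenicity, and these cannot be told apart. Nothing in the labels tells whether both arrays of a group stem from different cultures. The p-values therefore measure only the spread between these arrays, which may be technical.

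Signals are deposited log2 values, with array medians from 6.58 to 6.63. Testing required a signal over 5.97 on 2 or more arrays; this filter level is percentile 40 of the whole table. Signals of different probe sets depend on the probes, so levels of different genes were not compared. No detection calls were used, so a gene under the filter level is low and not shown to be absent. Of the markers of neural stem cells, Nes, which encodes an intermediate filament, read 9.17 and 8.97 in GIC against 11.45 and 10.81 in non-GIC and was lower in GIC (adjusted p = 0.0459, and 0.0503 without a filter). The fatty acid binding protein gene Fabp7 read 5.23 on both GIC arrays against 6.58 and 6.90 and was also lower (adjusted p = 0.0258). It passed the filter through the non-GIC arrays alone, and the fit without a filter gave 0.0305. Map2, a neuronal microtubule protein gene, read 7.46 and 7.25 in GIC against 9.50 and 9.79 in non-GIC and was lower in GIC, with a difference of -2.29 (adjusted p = 0.0190). Tubb3, the other tested neuronal marker, went the other way, with 9.77 and 10.06 in GIC against 7.98 and 9.56 in non-GIC. Its difference of 1.15 did not pass (adjusted p = 0.363). None of these 3 calls held with any 1 array left out (adjusted p from 0.0898 to 0.166 for Nes, 0.0507 to 0.110 for Fabp7 and 0.0502 to 0.0785 for Map2). Sox2, Msi1, Vim and Pax6 lay above the filter level on all 4 arrays and did not pass, and Prom1 lay under it on every array. The mean signal of the 7 neural stem cell markers was 8.44 and 8.48 in GIC and 9.15 and 9.20 in non-GIC. Markers of endothelium (2 of 4), microglia and leukocytes (2 of 4) and the erythroid lineage (2 of 3) lay under the filter level on every array. Pdgfra, which marks the oligodendrocyte lineage, read 12.51 and 12.09 in GIC and 9.68 and 10.41 in non-GIC, a difference of 2.26 that missed the threshold (adjusted p = 0.0504), while Olig1 and Olig2 lay under the filter level on every array. The mean signal was 6.52 and 6.56 in GIC and 6.60 and 7.09 in non-GIC for 4 neuronal markers, 7.07 and 6.91 against 6.90 and 7.35 for 4 astrocyte markers, and 7.12 and 7.04 against 6.61 and 6.73 for 5 oligodendrocyte lineage markers. That of 5 fibroblast and mural markers was 10.43 and 9.32 in GIC and 9.73 and 9.74 in non-GIC. The 4 tested among these 5 had differences from -2.06 to 1.26, 2 above 0 and 2 below, and none passed. No part of any of these markers in the Hox values was tested.

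One Hox gene, Hoxd8, was higher in GIC, and no other Hox gene passed the test in either direction. Of the 33 genes, 14 (42.4%) passed the level filter and were tested, against 73.5% of all genes on the array. The limma fit, with p-values adjusted by Benjamini-Hochberg across the 13366 tested genes, called 1 of the 14 higher and none lower, and 1 of the 14 had an unadjusted p under 0.05. In the same fit 1.92% of all tested genes were called, 1.23% higher and 0.688% lower in GIC, and 17.9% had an unadjusted p under 0.05. The median difference of the 14 genes was -0.10 on the log2 scale, beside -0.01 over all tested genes. Among the 33 genes 1 differed by at least 1 on the log2 scale, while 5.22% of all genes with a probe set did.

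**Figure D1:**
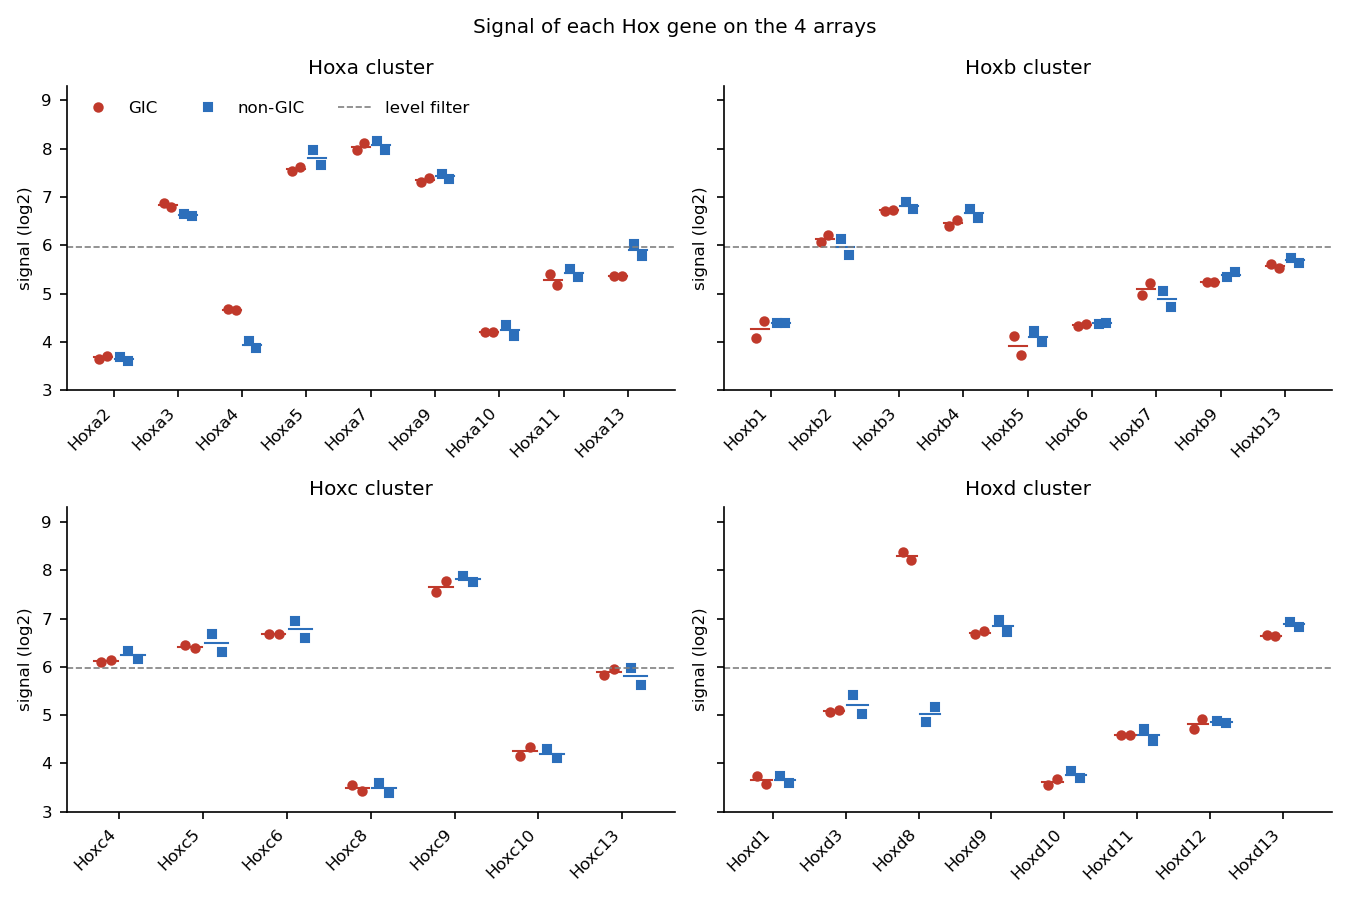
Signal (log2, vertical axis) of the 33 Hox genes with a probe set of their own, by cluster and paralogue number (horizontal axis), on the 2 GIC arrays (red circles) and the 2 non-GIC arrays (blue squares). Short lines are group means and the dashed line is the filter level of 5.97; Hoxd8 alone shows a wide gap, with GIC at 8.37 and 8.22 and non-GIC at 4.85 and 5.18.

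Hoxd8 encodes a paralogue group 8 factor of the middle of the Hoxd cluster on chromosome 2 (assembly GRCm38.p6). Its representing probe set, 1431099_at, read 8.37 and 8.22 in GIC and 4.85 and 5.18 in non-GIC. Both GIC arrays were high, both non-GIC arrays lay under the filter level, and the groups did not overlap. The mean was 8.29 ± 0.11 for GIC against 5.02 ± 0.23 for non-GIC (SD, n = 2), a log2 fold change of 3.28 (SE 0.16, 95% interval 2.87 to 3.69, limma adjusted p = 0.00789), or 9.71-fold. This places it 50th by increase among the tested genes. Because it passed the filter through the GIC arrays alone, the fit without a filter was also read, and there it remained called (adjusted p = 0.00794), as the only Hox gene among 33, where 1.27% of all 18193 genes were called. With non-GIC this low, the fold change may be understated.

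The second Hoxd8 probe set, 1433638_s_at, showed the same direction with a smaller difference. It read 7.46 and 6.98 in GIC and 5.32 and 4.97 in non-GIC, again without overlap. The difference was 2.07 on the log2 scale, or 4.21-fold, and limma gave an adjusted p of 0.0390 when each gene was represented by its second-highest probe set. Averaging both probe sets gave 2.68 (adjusted p = 0.00790). The Hoxd8 call did not hold without non-GIC replicate 1, where the log2 fold change was 3.12 and the adjusted p 0.0582. Leaving out any of the other 3 arrays gave adjusted p from 0.0240 to 0.0337. An exact permutation test of 2 against 2 arrays cannot go below p = 0.333, so the call rests on the spread that limma shares between genes.

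The DNA just upstream of Hoxd8 is shown with that of Hoxd9 and Hoxd3, the measured Hox genes whose starts lie nearest on either side. Hoxd8 was called, Hoxd9 was tested and not called, and Hoxd3 lay under the filter level with its own probe set and was not tested. Each window holds the 250 bases before the gene's start on the plus strand, from RefSeq (GRCm38.p6), with the homeodomain core TAAT, or ATTA on the other strand, in capitals. The windows are chr2:74697513-74697762 for Hoxd9, chr2:74704365-74704614 for Hoxd8 and chr2:74711743-74711992 for Hoxd3. The Hoxd8 and Hoxd3 windows both lie within the span of Gm38462, a long noncoding RNA gene on the opposite strand, and the Hoxd3 window also lies within that of Hoxd3os1.
Hoxd9: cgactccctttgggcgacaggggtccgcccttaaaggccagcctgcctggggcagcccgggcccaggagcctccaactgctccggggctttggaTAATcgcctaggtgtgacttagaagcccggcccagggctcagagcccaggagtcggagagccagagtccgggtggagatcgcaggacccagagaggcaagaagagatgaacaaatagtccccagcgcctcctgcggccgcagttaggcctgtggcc
Hoxd8: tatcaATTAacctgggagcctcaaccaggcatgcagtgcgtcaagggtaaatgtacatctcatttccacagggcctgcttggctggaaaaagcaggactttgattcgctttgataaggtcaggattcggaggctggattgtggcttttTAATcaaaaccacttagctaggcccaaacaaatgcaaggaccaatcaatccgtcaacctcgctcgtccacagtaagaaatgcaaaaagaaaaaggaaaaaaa
Hoxd3: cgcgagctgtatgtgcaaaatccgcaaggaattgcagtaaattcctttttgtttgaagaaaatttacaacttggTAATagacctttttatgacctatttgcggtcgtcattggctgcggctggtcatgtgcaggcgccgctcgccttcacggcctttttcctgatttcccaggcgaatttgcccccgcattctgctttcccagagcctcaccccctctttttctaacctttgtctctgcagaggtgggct

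The Hoxd8 window had 44.4% G and C and 6 CpG dinucleotides, against 65.2% and 13 for Hoxd9 and 49.2% and 12 for Hoxd3. Over 32851 such windows the medians were 52.4% and 6. Motifs were searched on both strands, with positions given for the leftmost base before the gene's start. The core TAAT occurred at -245 and -102 in the Hoxd8 window and once in each of the others, at -156 in Hoxd9 and -176 in Hoxd3, and 54.9% of all windows hold it. The sequence AGGTCA, the core bound by retinoic acid receptors, occurred at -135 in Hoxd8 and at -161 in Hoxd3, and 14% of all windows hold it. The Cdx core TTTATG occurred at -165 in Hoxd3 alone, overlapping that core, with a share of 10.8% of all windows. The CCAAT box CCAAT occurred at -62 in Hoxd8 and at -142 in Hoxd3, with a share of 33.8%. The GC box GGGCGG occurred at -226 in Hoxd9 alone (32.7% of windows), and the TATA box TATAAA was in none of the 3 (12.4% of windows). A match is a run of letters and not a measured binding site.

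No other measured gene of the Hoxd cluster was called, and of these only Hoxd9 and Hoxd13 were tested. The others lay under the filter level, where signals near the floor can understate a difference. Hoxd9, on the 5' side of Hoxd8, read 6.67 and 6.74 in GIC and 6.97 and 6.73 in non-GIC, with overlapping groups and a difference of -0.14 (95% interval -0.50 to 0.21). Hoxd3, on the other side, read 5.06 and 5.11 in GIC and 5.42 and 5.02 in non-GIC, under the filter level on all arrays. Hoxd13, the last gene of the cluster and a factor of distal limb and tail patterning, read 6.66 and 6.63 in GIC and 6.94 and 6.82 in non-GIC. Its groups did not overlap, with GIC the lower, and its difference of -0.23 did not pass (adjusted p = 0.377). Hoxd1, Hoxd10, Hoxd11 and Hoxd12 lay under the filter level on every array, with differences from -0.15 for Hoxd10 to 0.00 for Hoxd11.

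The genes around Hoxd8 were read in the same way. Gm38462, whose span covers Hoxd8 on the opposite strand, read 4.11 and 3.98 in GIC and 3.59 and 3.60 in non-GIC, all under the filter level. Both GIC arrays were the higher, by 0.45 on the log2 scale, and the fit without a filter gave an adjusted p of 0.129. The noncoding Hoxd3os1 read 5.15 and 5.22 in GIC and 5.32 and 5.02 in non-GIC. Evx2, a homeobox gene just beyond Hoxd13, had a difference of -0.07 and Lnpk, the next gene, one of -0.38 (adjusted p = 0.791 and 0.489). Mtx2, which flanks the other end next to Hoxd1, had a difference of -0.23 (adjusted p = 0.514). Over the 12 non-Hox genes in and beside the Hoxd cluster the differences ran from -0.38 to 0.76 with a median of -0.03, and none of the 8 tested was called.

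**Figure D2:**
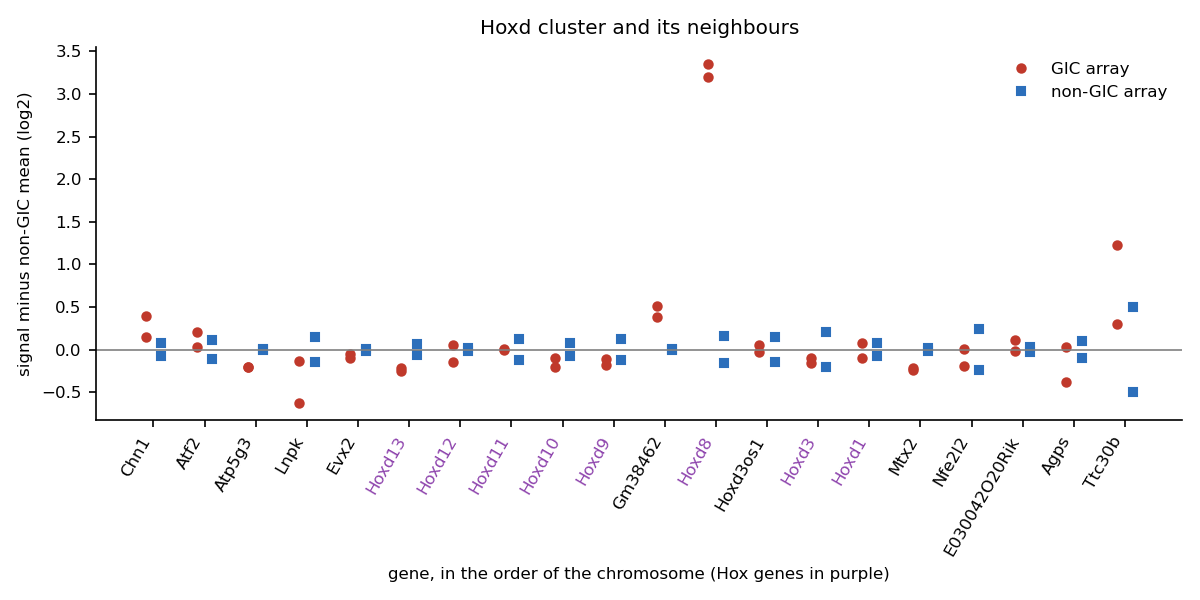
Signal of each array minus the non-GIC mean of the gene (log2, vertical axis) for the 8 Hoxd genes with a probe set (purple names) and the 12 nearest other genes, in chromosome order (horizontal axis). Red circles are GIC arrays and blue squares non-GIC arrays; Hoxd8 stands at about 3.28 in the mean while its neighbours Hoxd9 and Hoxd3 stand at -0.14 and -0.13.

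In the Hoxa cluster, which patterns the hindbrain, spinal cord and limbs, 4 of 9 measured genes were tested and none passed. Hoxa3 read 6.88 and 6.80 in GIC and 6.64 and 6.60 in non-GIC, so that GIC was slightly higher without overlap, and its difference of 0.22 did not pass (adjusted p = 0.388). Hoxa5, with probe set 1443803_x_at, read 7.53 and 7.62 in GIC and 7.97 and 7.66 in non-GIC, a difference of -0.24 (adjusted p = 0.522). Its other probe set, 1448926_at, went the other way, at 0.77, and lay under the filter level. Hoxa7 read 7.97 and 8.12 in GIC and 8.17 and 7.97 in non-GIC, with groups that overlapped and a difference of -0.02. Hoxa9, a gene of the posterior trunk that is also known from leukaemia with MLL rearrangements, read 7.32 and 7.39 in GIC and 7.47 and 7.38 in non-GIC. Its difference was -0.07 (95% interval -0.41 to 0.26).

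The other Hoxa genes were not tested, and 4 of them lay under the filter level on every array. Hoxa4, a gene of the posterior hindbrain and neck region, read 4.67 and 4.66 in GIC and 4.02 and 3.86 in non-GIC. Both GIC arrays were the higher, and the difference of 0.72 missed the threshold in the fit without a filter (adjusted p = 0.0542). Hoxa13, the last gene of the cluster, read 5.37 and 5.36 in GIC and 6.02 and 5.77 in non-GIC, with GIC the lower by 0.53 and an adjusted p of 0.157 in that fit. Hoxa2, which marks the hindbrain, differed by 0.03, and Hoxa10 and Hoxa11, trunk and limb genes, by -0.03 and -0.14.

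In the Hoxb cluster 3 of 9 measured genes were tested. Hoxb2, a hindbrain gene, read 6.07 and 6.21 in GIC and 6.13 and 5.79 in non-GIC, a difference of 0.18 with overlapping groups. Hoxb3 read 6.71 and 6.74 in GIC and 6.89 and 6.75 in non-GIC, and Hoxb4, known for its use in expanding blood stem cells, read 6.39 and 6.52 in GIC and 6.75 and 6.57 in non-GIC. In both genes GIC was the lower without overlap, and neither passed (differences -0.10 and -0.20, adjusted p = 0.720 and 0.484). The 6 untested genes, Hoxb1, Hoxb5, Hoxb6, Hoxb7, Hoxb9 and Hoxb13, lay under the filter level on every array, with differences from -0.19 for Hoxb5 to 0.20 for Hoxb7. Hoxb13 read 5.62 and 5.53 in GIC and 5.75 and 5.64 in non-GIC.

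In the Hoxc cluster 4 of 7 measured genes were tested and the differences ran from -0.16 to 0.09 over all 7. Hoxc4 read 6.10 and 6.14 in GIC and 6.33 and 6.16 in non-GIC, the only gene of this cluster whose groups did not overlap. Hoxc5 read 6.45 and 6.39 in GIC and 6.69 and 6.30 in non-GIC, and Hoxc6, a gene of the thoracic region, read 6.68 and 6.67 in GIC and 6.94 and 6.61 in non-GIC. In both, non-GIC replicate 1 was the highest array and non-GIC replicate 2 the lowest. Hoxc9, a gene of thoracic motor neurons, read 7.54 and 7.79 in GIC and 7.89 and 7.76 in non-GIC, a difference of -0.16 (95% interval -0.57 to 0.25). Hoxc13, which is known from hair follicles, read 5.83 and 5.95 in GIC and 5.98 and 5.62 in non-GIC, on either side of the filter level only in non-GIC. Hoxc8 and Hoxc10 lay under it on every array, with differences of -0.00 and 0.05.

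**Figure D3:**
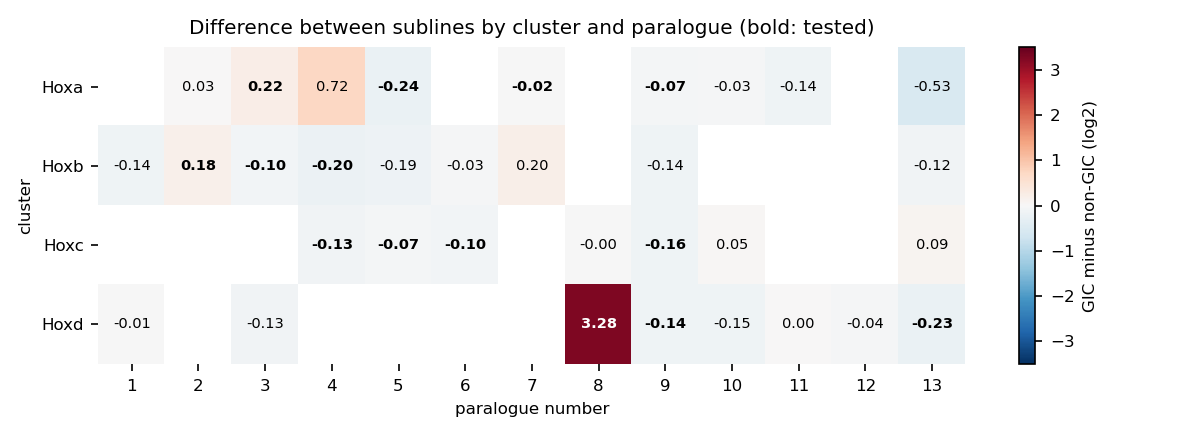
Mean GIC signal minus mean non-GIC signal (log2; red higher in GIC, blue lower) of the 33 measured Hox genes, by cluster (rows) and paralogue number (columns), with tested genes in bold and empty cells for genes that do not exist or were not analysed here. The value of 3.28 for Hoxd8 stands beside values between -0.53 and 0.72 in every other filled cell.

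By paralogue number, no group had more than 1 member past the test. Group 8 had Hoxd8 at 3.28 and Hoxc8 at -0.00. Group 9 had all 4 members measured, from -0.16 for Hoxc9 to -0.07 for Hoxa9, and group 13 had 4 members, from -0.53 for Hoxa13 to 0.09 for Hoxc13. In group 4 the values were 0.72 for Hoxa4, -0.20 for Hoxb4 and -0.13 for Hoxc4.

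For the 13 tested genes other than Hoxd8, differences ran from -0.24 to 0.22, with 11 below 0 and 2 above, and adjusted p from 0.377 to 0.950. Their 95% intervals, for the representing probe sets alone, lay between -0.67 and 0.57 on the log2 scale. A difference of 2-fold or more thus lay outside the interval of each representing probe set, under limma's assumptions. This does not cover the other probe sets of these genes. A p that missed the threshold does not show that the sublines had equal levels. The gap between the 2 arrays of a subline had a median of 0.14 over the 33 genes and reached 0.41. Groups did not overlap in 12 of the 33 genes, 3 higher and 9 lower in GIC, while 47% of all genes with a probe set had groups that did not overlap. The share for Hox genes is thus near or under the background and is no result about them.

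Several Hox genes have more than 1 probe set, and these were used as a check. Of 11 such genes, 4 had all their probe sets on the same side of 0 (Hoxa4, Hoxa9, Hoxa10 and Hoxd8), and 7 were mixed. Hoxa4 had 0.72 and 0.33. Hoxa5 had the widest disagreement, with -0.24 for the representing probe set and 0.77 for the other, which read 5.28 and 5.68 in GIC and 4.65 and 4.77 in non-GIC, under the filter level. The probe sets of Hoxa3 ran from -0.24 to 0.39, and those of Hoxc6 from -0.25 to 0.16. The direction of Hoxa3, Hoxa5, Hoxb3, Hoxb4, Hoxc5, Hoxc6 and Hoxd13 is therefore not settled by these arrays. Spans of Hox genes also overlap in 6 pairs in RefSeq, among them Hoxa3 with both Hoxa4 and Hoxa5, where a probe set may read more than one transcript.

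**Figure D4:**
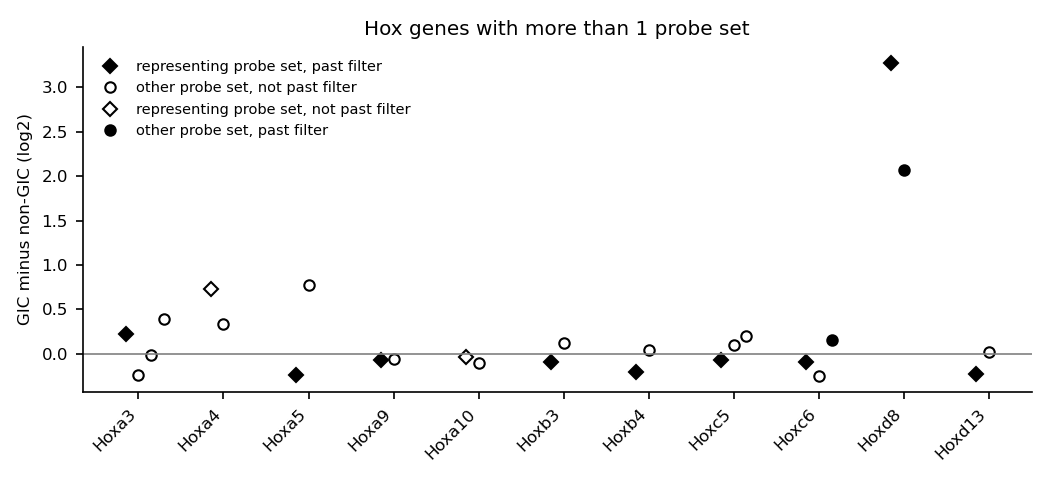
GIC minus non-GIC (log2, vertical axis) of every probe set of the 11 Hox genes with more than 1, with diamonds for the probe set that represents the gene, circles for the others, and filled symbols for those past the level filter. Both Hoxd8 probe sets are filled and above 2, while the pair of Hoxa5 lies on either side of 0, at -0.24 and 0.77.

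Genes that work with or upstream of Hox factors were read from lists of known function, against the shares of 1.92% called and 17.9% with an unadjusted p under 0.05 over all tested genes. Of 8 tested cofactor genes none passed in the limma fit, 2 had an unadjusted p under 0.05, and their median was -0.16. Pknox2, which encodes a TALE homeodomain partner, read 8.04 and 7.64 in GIC and 8.67 and 8.84 in non-GIC, a difference of -0.92 (adjusted p = 0.124). Meis1, a partner that stabilises Hox proteins on DNA, read 7.63 and 6.89 in GIC and 8.26 and 8.32 in non-GIC, a difference of -1.03 (adjusted p = 0.165). Among 3 Meis1 probe sets 1 went the other way, at 0.03. In both genes the GIC arrays were the lower without overlap.

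None of 29 tested Polycomb and H3K27 demethylase genes passed in the limma fit, 5 had an unadjusted p under 0.05, and their median was 0.01. Ezh2, the methyltransferase of Polycomb complex PRC2, read 9.56 and 10.01 in GIC and 11.07 and 11.06 in non-GIC. Both GIC arrays were the lower, and the difference of -1.28 missed the threshold (adjusted p = 0.0749). Aebp2, a PRC2 accessory subunit, had -0.59 (adjusted p = 0.158). None of 14 tested trithorax and MLL complex genes passed in the limma fit, 0 had an unadjusted p under 0.05, and their median was 0.05. The methyltransferases Setd1b and Kmt2c had 0.73 and 0.57 (adjusted p = 0.297 and 0.335).

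Of 17 tested upstream regulators and retinoic acid genes, 1 was higher in GIC and 16 did not pass, with a median of 0.07. In the limma fit 5 of the 17 had an unadjusted p under 0.05. Over all tested genes 17.9% did, and 1.23% were called higher. Rdh10, the enzyme that makes retinaldehyde for retinoic acid synthesis, read 12.57 and 12.67 in GIC and 10.02 and 9.83 in non-GIC. That is a log2 fold change of 2.70 (SE 0.16, adjusted p = 0.0101), or 6.49-fold, with both of its probe sets going the same way. The call did not hold without non-GIC replicate 1 or 2 (adjusted p = 0.0785 and 0.0683).

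Another 3 genes of this list are named after their values were seen. Cdx2, a homeobox factor that activates Hox genes in the posterior embryo, read 7.72 and 8.58 in GIC and 6.23 and 6.12 in non-GIC, a difference of 1.98 (adjusted p = 0.0622). With each array left out in turn, the Cdx2 difference ran from 1.55 to 2.41. Crabp1, which binds retinoic acid in the cytosol, read 12.99 and 12.77 in GIC and 10.58 and 9.33 in non-GIC, a difference of 2.92 (adjusted p = 0.0601). Its ratio was 7.57-fold with all arrays, 11.7-fold when non-GIC replicate 1 was left out and 4.91-fold when the second non-GIC array was. Cyp26b1, which breaks retinoic acid down, read 8.28 and 7.85 in GIC and 6.85 on both non-GIC arrays, a difference of 1.21 (adjusted p = 0.0615). The GIC arrays were the higher in all 3 genes, and none of the 3 passed. As these genes were picked by their values, their shared direction says nothing about the list. Over its 17 tested genes, 9 differences lay above 0 and 8 below. Aldh1a2 and Aldh1a1, enzymes of the final step, lay under the filter level on every array, and Aldh1a3 had -1.04 (adjusted p = 0.273).

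The brain regional identity list held 15 tested genes, of which 1 was higher in GIC and 14 did not pass, with a median of 0.00. Again 1.23% of all tested genes were called higher. In the limma fit 3 of the 15 had an unadjusted p under 0.05, beside 17.9% of all tested genes. En2, a homeobox gene of the midbrain and anterior hindbrain, read 6.81 and 7.55 in GIC and 4.53 and 4.36 in non-GIC. Like Hoxd8 it passed the filter through the GIC arrays alone, with a log2 fold change of 2.73 (SE 0.26, adjusted p = 0.0288) from its single probe set, and it remained called without a filter (adjusted p = 0.0315). The call did not hold without non-GIC replicate 1 or 2 (adjusted p = 0.115 and 0.125), and at a filter on the 60th percentile En2 was not tested. The forebrain factors Emx2, Otx1 and Pax6 lay above the filter level on all 4 arrays, with differences of 0.63, 0.25 and -0.44 (adjusted p = 0.347, 0.596 and 0.361). Irx3, an Iroquois homeobox factor of the more posterior brain, read 9.32 and 8.16 in GIC and 10.23 and 10.42 in non-GIC (adjusted p = 0.161).

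Genes beside the clusters gave 1 call. Of 35 tested neighbours of all 4 clusters, Jazf1, a zinc finger gene some distance beyond the Hoxa13 end, was lower in GIC. The other 34 did not pass, and the median of the 35 was -0.09. Over all tested genes 0.688% were called lower. In the limma fit 7 of the 35 had an unadjusted p under 0.05, beside 17.9% of all tested genes. Jazf1 read 6.14 and 6.55 in GIC and 8.47 and 8.76 in non-GIC, a log2 fold change of -2.27 (SE 0.21, adjusted p = 0.0258). The call did not hold without GIC replicate 1 (adjusted p = 0.0787), non-GIC replicate 1 (0.0877) or non-GIC replicate 2 (0.0902). Evx1 and Hibadh, which lie between it and Hoxa13, had 0.07 and -0.86, and neither passed.

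**Figure D5:**
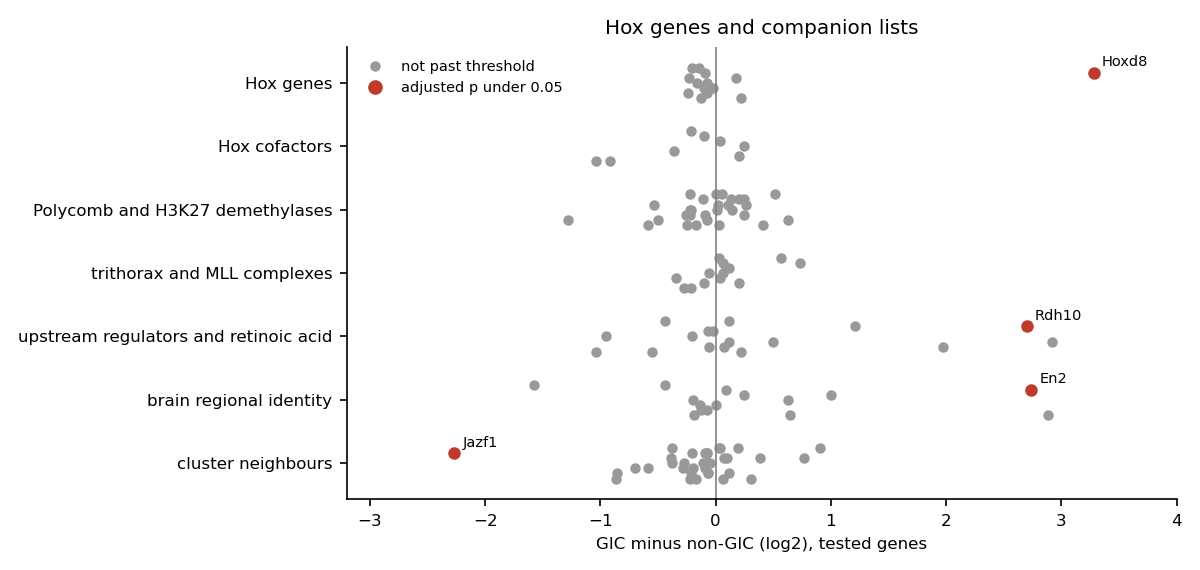
GIC minus non-GIC (log2, horizontal axis) of every tested gene of the Hox set and of 6 lists of related genes (rows; vertical scatter within a row has no meaning), with genes past an adjusted p of 0.05 in red and named. Hoxd8 (3.28), Rdh10 (2.70), En2 (2.73) and Jazf1 (-2.27) are the named points.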

How the data were processed

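RNA of 2 GIC and 2 non-GIC samples was labelled by the Affymetrix One-Cycle procedure, per the labels' protocols, and hybridised to 1 array each. The authors deposited 1 log2 value for each of 45101 probe sets and array. No source names the log base, which was inferred from their range (2.75 to 15.12). How they were background-corrected, summarised and normalized is not given in the sources used here.

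Gene names came from the platform annotation, updated to GRCm38.p6 symbols by Entrez identifier: 34945 had 1 gene, 932 several and 9160 none, beside 64 controls. The probe set with the highest mean represented a gene. Differences are GIC minus non-GIC, fitted by limma 3.58.1 under R 4.3.3 (lmFit, eBayes with an intensity trend, two-sided, Benjamini-Hochberg over all tested genes, threshold 0.05), with 2 residual and 2.72 prior degrees of freedom. The procedure was tested on simulated data. Intervals are at the 95% level. Figures used matplotlib 3.10.9.

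The members and lists were chosen with earlier results of these data known. The rule for named genes took all Hox members, and from each list of related genes (not the cell type markers) those past the threshold or else the 2 with the smallest p. It also took the 4 brain regional genes of highest mean signal, which only chose names and compares no levels. Other genes named (Map2, Tubb3, Pdgfra, Gm38462, Hoxd3os1, Hoxa11os, Hoxb5os, Gm15050, Evx1, Evx2, Lnpk, Mtx2, Hibadh, Cdx2, Crabp1, Cyp26b1, the Aldh1a genes, Lhx2 and En1) were chosen after their values were seen. For cluster neighbours, the list was the 5 nearest genes on each side and any gene inside. The alternatives were a replicate block, 2 scalings, 2 filters, 2 choices of probe set, 2 variance models and leaving out each array (the lone array left is then assumed to vary like the other group), and a crossed block and the second-highest probe set were added after seeing the data.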

Additional observations from a re-analysis of the deposited data

How the results depend on the processing

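The number of arrays limits every value: with 2 against 2 the precision rests on a spread shared between genes, and signals near the floor can understate a difference. Blocks, filters and variance models cannot change the group difference of a probe set. Leaving out an array could not turn the sign for Hoxd8, as both GIC arrays lay above both non-GIC arrays. Only the scalings and a change of probe set could have turned it. Over 15 alternatives the Hoxd8 log2 fold change stayed between 2.07 and 3.44 and above 0 in each. It kept its call in 13. The exceptions were the replicate block (3.28, adjusted p = 0.0507) and leaving out non-GIC replicate 1; with each array left out in turn the fold change ran from 3.12 to 3.44 and the number of Hox genes called from 0 to 1. The labels do not pair replicate numbers, and deviations of same-numbered arrays correlated at -0.32. The replicate block called 29 genes in all against 257 without it, 0 Hox genes and 0 genes of the companion lists. At the 60th percentile filter the brain regional list had 0 calls, because En2 was no longer tested. A crossed replicate block, added after seeing the data, called 685 genes, with 7 in the companion lists against 3 (4 of them upstream and retinoic acid genes and 1 a Polycomb gene). These fits have fewer residual degrees of freedom, and the cause of the changed counts was not tested. Leaving out each array gave 12 to 188 genes and 0 to 3 in the companion lists. The median of the tested Hox genes ran from -0.22 to -0.02 under the alternatives, beside -0.10 in the main fit. Blocks and variance models cannot change this median, so their equal values are no test of it. Directions turned for Hoxa5 with the mean of its probe sets (0.27), for Hoxc6 with its second-highest probe set (0.16), and, with an array left out, for Hoxa7 (-0.12 to 0.073), Hoxc5 (-0.27 to 0.12) and Hoxc6 (-0.26 to 0.070), none of which passed in any fit.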

Other observations

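In the brain regional list the non-GIC arrays differed from each other in a pair of homeobox genes, named after their values were seen. Lhx2, a forebrain and eye field factor, read 8.82 and 9.01 in GIC, 4.30 on non-GIC replicate 1 and 7.77 on non-GIC replicate 2. En1, the paralogue of En2, read 6.00 and 6.12 in GIC, 3.91 on non-GIC replicate 1 and 6.20 on non-GIC replicate 2. Neither passed with all arrays (adjusted p = 0.293 and 0.554), while without non-GIC replicate 2 the adjusted p was 0.0332 and 0.0337. That fit has 1 non-GIC array, so a gene's own spread comes from the GIC arrays alone, beside the spread that limma shares between genes. Both genes were also picked for the gap between the non-GIC arrays. These p-values are therefore no support for a difference between the sublines.

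The list of neighbours holds 5 genes inside the clusters that are not Hox genes, of which 2 were tested and neither passed. Hoxb5os, from the Hoxb cluster, read 7.61 and 7.59 in GIC and 7.22 on both non-GIC arrays, a difference of 0.38 (adjusted p = 0.222). Gm15050, which lies within the span of Hoxa3, read 7.45 and 7.41 in GIC and 7.18 and 7.05 in non-GIC, a difference of 0.31 (adjusted p = 0.307). Hoxa11os, from the Hoxa cluster, read 4.592 on both GIC arrays and 4.61 and 4.76 in non-GIC, under the filter level, a difference of -0.09. Gm38462 and Hoxd3os1, from the Hoxd cluster, had differences of 0.45 and 0.01, also under the filter level.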
